A study of Mus musculus with 2 samples.

Results

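The STAT and JAK genes were followed in H3K9ac chromatin immunoprecipitation sequencing of leukemic mouse spleen cells. All rows of the authors' deposited table of regions that carry one of 9 symbols (Stat2, Stat3, Stat4, Stat5a, Stat5b, Stat6, Jak1, Jak2 and Jak3) were taken, which gave 17 of 20615 regions and 7 of 12553 gene symbols. Stat2 and Jak3 had no row of their own. H3K9ac is acetylation of lysine 9 of histone H3, a mark of active promoters and enhancers. Both groups came from NUP98/HOXD13 mice, which express a fusion that drives myelodysplasia and leukemia, and both carried a human cDNA of GFI1, a transcriptional repressor of blood cells. In the first group (labelled 36S/S) residue 36 of GFI1 is serine, and in the second (36N/N) it is asparagine. With 1 library per genotype there is no replicate error and no p-value, and every comparison is between these 2 libraries. The sources used here do not say how old the mice were or whether a library pooled several.

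The cytokine receptors of this pathway lack kinase activity of their own and carry Janus kinases (JAKs) on their cytoplasmic tails. When a cytokine binds, the JAKs phosphorylate the receptor and then the STAT transcription factors, which pair up, enter the nucleus and bind DNA at GAS elements or, with STAT2 and IRF9, at interferon-stimulated response elements (ISREs). In blood formation JAK2 serves the erythropoietin, thrombopoietin and granulocyte-macrophage colony-stimulating factor receptors and activates mainly STAT5A and STAT5B. JAK1 and JAK3 serve the interleukin receptors with the common gamma chain, STAT3 answers to interleukin-6 and granulocyte colony-stimulating factor, STAT4 to interleukin-12 in T and NK cells, and STAT6 to interleukin-4.

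The sequences around 2 groups of start sites are shown: 2 starts with an ISRE match and a pair of starts of neighbouring paralogs that resemble each other. No relation between these sequences and the acetylation values was tested. All are windows of 300 bases, from 250 before to 50 after a RefSeq start site (GRCm38.p6), written 5′ to 3′ on the strand of the gene. The 9 genes have 12 such windows, and in 11 of them the start lay inside a region of the table. The exception was the first start of Stat4: its single region lies over the second start, inside the gene. Stat5b likewise has a second start inside the gene, with a region of its own. In the first pair below, the capitals mark matches to the ISRE letters (GAAA, any 2 bases, GAAA), searched on both strands. The Stat4 window is chr1:52007990-52008289 (plus strand, second start), with the match beginning 97 bases before the start, and the Stat2 window is chr10:128270248-128270547 (plus strand), with the match beginning 222 bases before it.
Stat4: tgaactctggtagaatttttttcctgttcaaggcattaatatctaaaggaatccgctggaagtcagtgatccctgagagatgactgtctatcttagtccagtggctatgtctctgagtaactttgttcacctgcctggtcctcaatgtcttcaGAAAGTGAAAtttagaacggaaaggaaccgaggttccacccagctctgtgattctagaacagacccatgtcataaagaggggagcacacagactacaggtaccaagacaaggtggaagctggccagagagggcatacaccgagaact
Stat2: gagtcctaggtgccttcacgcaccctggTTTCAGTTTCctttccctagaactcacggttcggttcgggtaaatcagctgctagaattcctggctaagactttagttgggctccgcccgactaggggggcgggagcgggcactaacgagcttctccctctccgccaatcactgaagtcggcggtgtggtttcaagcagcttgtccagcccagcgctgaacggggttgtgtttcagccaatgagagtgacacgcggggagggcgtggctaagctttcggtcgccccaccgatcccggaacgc
An ISRE match was found in 2 of the 12 windows and in 3.43% of 32817 RefSeq promoter windows of the same length. The GAS letters TTCNNNGAA were in none of the 12 windows and in 8.29% of all, and the ETS letters CCGGAA in 3 (Stat2, Stat5b and Stat6) and in 14.9% of all. No match overlapped another. A match of letters is a description and not a bound site.

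The second pair shows the second start of Stat5b, chr11:100822521-100822820 (minus strand), and the second start of Stat5a, chr11:100860234-100860533 (plus strand). The capitals mark the stretch that aligned without gaps.
Stat5b: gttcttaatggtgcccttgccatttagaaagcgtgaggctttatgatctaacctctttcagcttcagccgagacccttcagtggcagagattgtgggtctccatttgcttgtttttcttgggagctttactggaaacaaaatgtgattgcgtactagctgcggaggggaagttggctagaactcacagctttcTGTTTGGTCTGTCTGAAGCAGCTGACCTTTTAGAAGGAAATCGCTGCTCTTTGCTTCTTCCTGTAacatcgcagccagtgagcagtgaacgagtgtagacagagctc
Stat5a: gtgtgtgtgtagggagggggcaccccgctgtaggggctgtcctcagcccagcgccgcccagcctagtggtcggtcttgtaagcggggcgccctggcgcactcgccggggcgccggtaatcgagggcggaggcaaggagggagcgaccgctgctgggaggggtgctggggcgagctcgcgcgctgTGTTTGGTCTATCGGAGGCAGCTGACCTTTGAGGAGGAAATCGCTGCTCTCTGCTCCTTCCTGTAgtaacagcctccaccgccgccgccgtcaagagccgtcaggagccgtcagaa
Of 63 pairs of windows from different members, this pair had the highest local alignment score, with 58 of 65 aligned bases identical (89.2%). The stretch runs from 57 bases before to 8 after the start in Stat5b, and from 66 to 2 before the start in Stat5a. Stat5a and Stat5b are neighbouring paralogs on chromosome 11, and Stat3 lies on the other side of Stat5a. The windows differed widely in CpG content, from 2 CpG in the window of the first Stat4 start to 50 in that of the first Stat5b start (median of all promoter windows 7).

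The 36S library held 4989632 reads in all regions (median 95 per region) and the 36N library 3292869 (median 83). The deposited values are log2 reads per region and are not divided by region length. Differences below are 36N minus 36S on the log2 scale as deposited. Brackets hold its 95% exact conditional interval given the reads of both libraries, which allows for counting error alone. Over all regions the median difference was −0.40, and it fell with the level, from above 0 at weak regions to about −0.74 at the level of the strong STAT and JAK promoters. For this reason a level-adjusted difference, the distance from a lowess trend of difference on level, is given beside it. A region lower or higher by 1 log2 unit (2-fold) is counted as past a rule of size. Of the marker lists, all 6 measured erythroid genes were lower by that much, as were 12.6% of all genes (summed reads 2868 in 36S and 729 in 36N). Of all genes 48.2% lay below the trend and 51.8% above it. The 7 measured T cell genes were all below the trend (1309 and 521), with 3 past the rule of size. The 3 measured NK cell genes were above it (334 and 453), as were all 6 granulocyte genes (2542 and 2149) and 7 of 8 monocyte and macrophage genes (2699 and 3295). Of the 3 NK cell regions 2 lie outside the gene, and by RefSeq overlap only 1 NK cell gene was measured. In B cell, dendritic, mast cell and basophil, and megakaryocyte genes (3, 4, 3 and 4 measured), 2, 3, 2 and 0 lay above the trend. Each library mixes all cells of the spleen samples, so fewer cells of a type and less H3K9ac per cell cannot be told apart.

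At their strongest region 6 of the 7 measured genes carried less H3K9ac in the 36N library, and Stat4 carried more. All 7 strongest regions held a RefSeq start of the gene. The 6 lower genes lay between −0.97 (Jak2) and −0.45 (Jak1), and none of the 7 passed 1 log2 unit in either direction. Among all genes 12.6% were lower and 7.37% higher by as much. The counting interval was below 0 in 6 of 7, against 58.3% of all genes, and above 0 in Stat4 alone, against 13.8%. The median of the 7 was −0.84, while the median of all genes was −0.53. Most of this lay on the trend with level: adjusted for it, the median of the 7 was −0.10 (all genes 0.02), with 5 below the trend (48.2% of all genes) and 2 above it (51.8%).

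**Figure D1:**
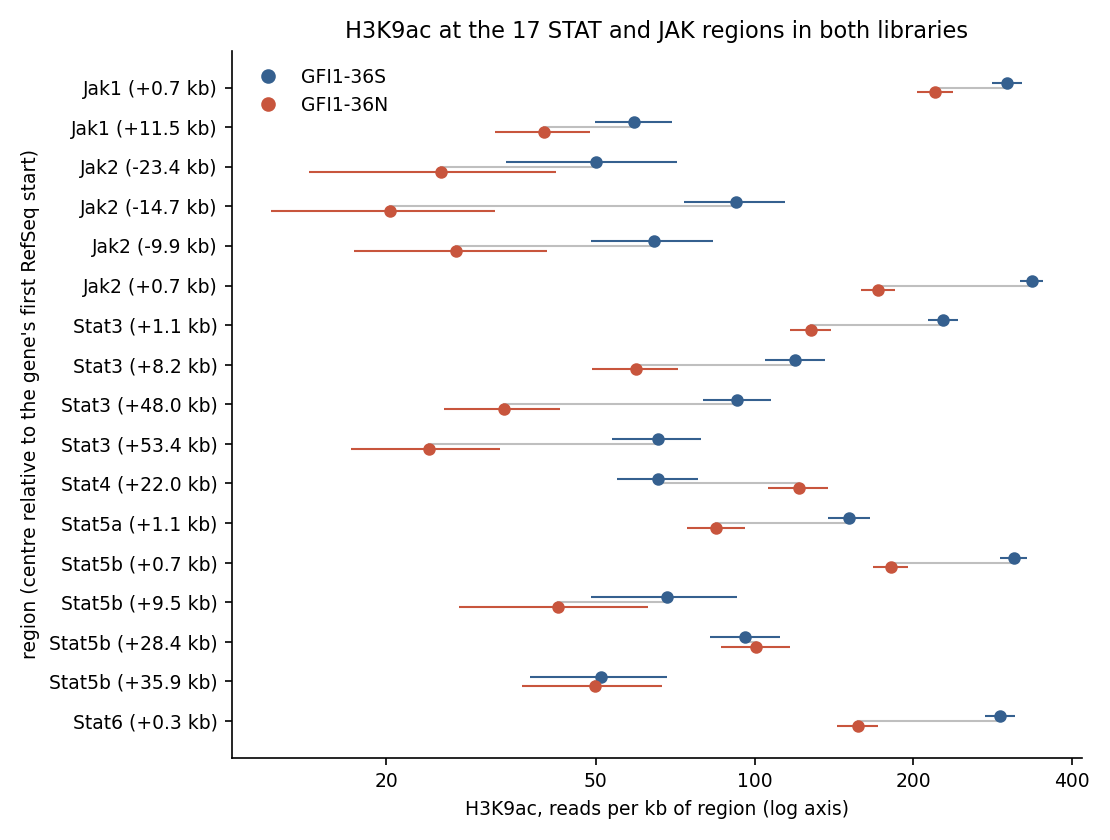
Reads per kb of region (log axis) in the GFI1-36S and GFI1-36N libraries for all 17 regions, named by gene and by the distance of the region's centre from the gene's first RefSeq start. Bars are exact Poisson 95% intervals (counting error only). Stat4 is the only gene whose 36N point lies clearly to the right of its 36S point (121 against 65.6 reads per kb); at the +28.4 kb region of Stat5b the 2 points overlap.

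Among the kinases, the counting intervals of Jak1 and Jak2 overlapped in the 36S library, where Jak2 had the most H3K9ac per length. Its promoter region (chr19:29250301-29254650) held 1460 reads in 36S and 733 in 36N, 336 and 172 reads per kb. The 36N library was lower by 1.96-fold, a difference of −0.97 (−1.10 to −0.84), with a level-adjusted difference of −0.22. Jak1, the kinase shared by the interferon, interleukin-6 family and gamma-chain receptors, was the least lowered of the 6. Its promoter region (chr4:101263051-101265900) held 859 and 616 reads, a difference of −0.45 (−0.60 to −0.30), and lay 0.29 above the trend. A second Jak1 region inside the gene (chr4:101252551-101254950), with its centre 11.5 kb past the start, had 142 and 94 reads and differed by −0.57 (−0.96 to −0.18).

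By reads per kb Jak2 stood above Jak1 in 36S and below it in 36N. In 36S their counting intervals overlapped (Jak2 319 to 353, Jak1 282 to 322), so their order there is not resolved. In 36S the order by reads per kb was Jak2 (336), Stat5b (310), Jak1 (301) and Stat6 (293), with counting intervals that overlap between neighbours, followed by Stat3 (228), Stat5a (151) and Stat4 (65.6), which stood apart. In 36N Jak1 (220) stood above Stat5b (181), Jak2 (172) and Stat6 (157), whose neighbours overlapped. Stat3 (128) and Stat4 (121) then overlapped, and Stat5a (84.5) was last. Stat4 thus went from the lowest level per length, with 69.8% of all genes at or above it, to a level with 31.6% of genes at or above it.

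Stat4, the transcription factor of the interleukin-12 response, was the member with more H3K9ac in the 36N library. Its one region (chr1:52008151-52010100) lies over the second RefSeq start, whose window is printed above, and has its centre 21978 bases past the first start. Most of the ISRE match in that window lies just before the first base of the region. The region held 128 reads in 36S and 232 in 36N, 1.85-fold higher in 36N. The difference was 0.88 (0.57 to 1.21), and the level-adjusted difference was 1.32, which 4.59% of all regions reached or passed. It thus passed the rule of size with the trend subtracted (8.66% of all genes were higher by as much) and also relative to the median region, at 1.28 (12.9% of all genes). Of the listed targets of STAT4 and STAT6, 7 of 13 had a region, with a median of 0.06 and 5 above the trend (51.8% of all genes). Of these 7 regions 4 lie outside the gene. When regions were chosen anew among overlapping ones alone, which brings in other regions, the median was 0.58. By RefSeq overlap 4 of the genes were measured, with a median of 0.06. Tbx21, the T-bet factor of type 1 lymphocytes, had 31 and 65 reads (1.09, 0.46 to 1.76), and a region 24409 bases past the end of Ifng, the interferon-gamma gene, had 21 and 39 (0.92, 0.12 to 1.76). Both are below the median level of all genes and were chosen after their values were seen. They were the only 2 of the 7 with an interval above 0, and none had one below 0. The others were Ccl17 at 0.12, Il18rap and Maf at 0.06, Il18r1 at −0.23 and Il4ra at −0.24, with intervals that include 0. Markers of T cells and NK cells, in both of which STAT4 acts, lay on opposite sides of the trend. Among T cell genes Lck had 514 and 166 reads (−1.60, −1.87 to −1.35), and among NK cell genes the region given to Klrb1c, 8736 bases before that gene, had 218 and 309 (0.53, 0.28 to 0.79). The part of these cell types in the Stat4 value was not tested.

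**Figure D2:**
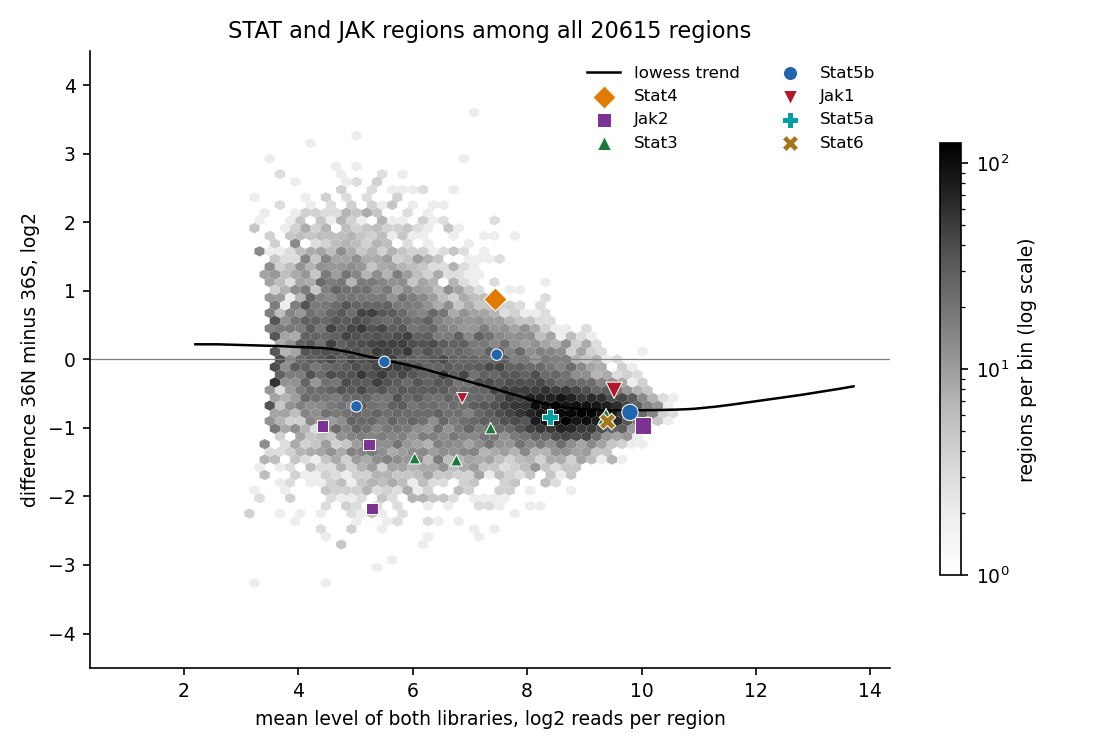
Difference (36N minus 36S, log2) against mean level (log2 reads per region) for all 20615 regions (grey bins, darker for more regions), with the lowess trend and the 17 STAT and JAK regions; larger symbols are the strongest region of a gene. Stat4 lies well above the trend at its level (difference 0.88). The strong promoters of the other genes lie near the trend, and the weaker Jak2 and Stat3 regions lie below it.

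The promoters of Stat3, Stat5a, Stat5b and Stat6 lay close together. Stat6 (chr10:127641751-127644900) had 922 and 485 reads, a difference of −0.90 (−1.06 to −0.74). Stat3 (chr11:100936501-100940400) had 890 and 489 reads and differed by −0.84 (−1.0 to −0.68). Stat5a (chr11:100859251-100862250, which holds both of its starts) had 454 and 249 reads and also differed by −0.84 (−1.07 to −0.61). The first start of Stat5b (chr11:100848001-100851750) had 1164 and 668 reads and differed by −0.77 (−0.91 to −0.64). The 4 intervals overlap, and the level-adjusted differences ran from −0.18 (Stat5a) to −0.03 (Stat5b).

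Away from the promoters the genes parted. Of the 17 regions, 5 were lower by 1 log2 unit or more, against 14.1% of all regions, and none was higher by as much, against 7.49%. These 5 were 3 regions of Stat3 and 2 of Jak2. After adjustment for level 5 were lower as well (8.3% of all regions), with the 8.2 kb region of Stat3 replaced by the farthest Jak2 region, and Stat4 was higher (8.12%). Relative to the median region 3 were lower (5.11%), 2 of Stat3 and the middle one before Jak2, and Stat4 was higher (14.4%). All 9 regions that held no start of their gene lay below the trend, as did 54.7% of all regions without any RefSeq start. Their median difference was −1.0, against −0.20 over those regions.

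Upstream of Jak2 there were 3 weak regions, which the table gives to Jak2 at distances of 23128, 14278 and 9478 bases and labels downstream. That word gives the side on which the gene lies: of 1137 regions with this label that could be placed beside RefSeq genes, 1134 lay before the start of the gene. The middle one (chr19:29236651-29237550) had 83 reads in 36S and 18 in 36N, a difference of −2.18 (−3.0 to −1.43). Its level-adjusted difference was −2.21, and 0.699% of all regions lay as far below or farther. The nearest (chr19:29241451-29242350) had 58 and 24 reads (−1.25, −2.0 to −0.54) and overlaps the predicted gene Gm41829 in RefSeq. The farthest (chr19:29228101-29228700) had 30 and 15 reads (−0.97, −1.97 to −0.03). In both libraries these regions held few reads beside the promoter, and in 36N they held 15 to 24 reads each. The erythroid markers, among them the gene for the JAK2-coupled receptor Epor with 628 and 182 reads (−1.76, −2.01 to −1.52), were lower as well, and their part in the Jak2 values was not tested.

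Stat3 had 3 weaker regions inside the gene, all lower by more than the promoter as deposited. The region with its centre 8.2 kb past the start (chr11:100930351-100932300) had 233 and 114 reads (−1.0, −1.34 to −0.68). The region at 48.0 kb (chr11:100890601-100892550) had 181 and 64 reads (−1.47, −1.91 to −1.05). The last, at 53.4 kb (chr11:100885351-100887000), had 108 and 39 reads (−1.44, −2.01 to −0.90), reaches past the 3′ end of the gene towards Stat5a and overlaps Stat3 by 195 bases. After adjustment for level the last 2 were at −1.20 and −1.34, while the promoter was at −0.10.

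At its second start Stat5b did not share the lower value of its first start. The region over its second start (chr11:100821301-100823100), whose sequence resembles the second Stat5a start, had 173 reads in 36S and 178 in 36N. Its difference of 0.07 (−0.24 to 0.38) was not detectable at this depth. It lay 0.51 above the trend, which 20.1% of all regions reached or passed. The aligned Stat5a start lies in the Stat5a region at −0.84. A region 35.9 kb past the first start (chr11:100814251-100815150) had 46 and 44 reads (−0.04, −0.67 to 0.59), or −0.03 adjusted for level. One at 9.5 kb (chr11:100840801-100841400) had 41 and 25 reads and was lower, at −0.69, or −0.77 adjusted for level. Its interval of −1.47 to 0.06 includes 0.

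**Figure D3:**
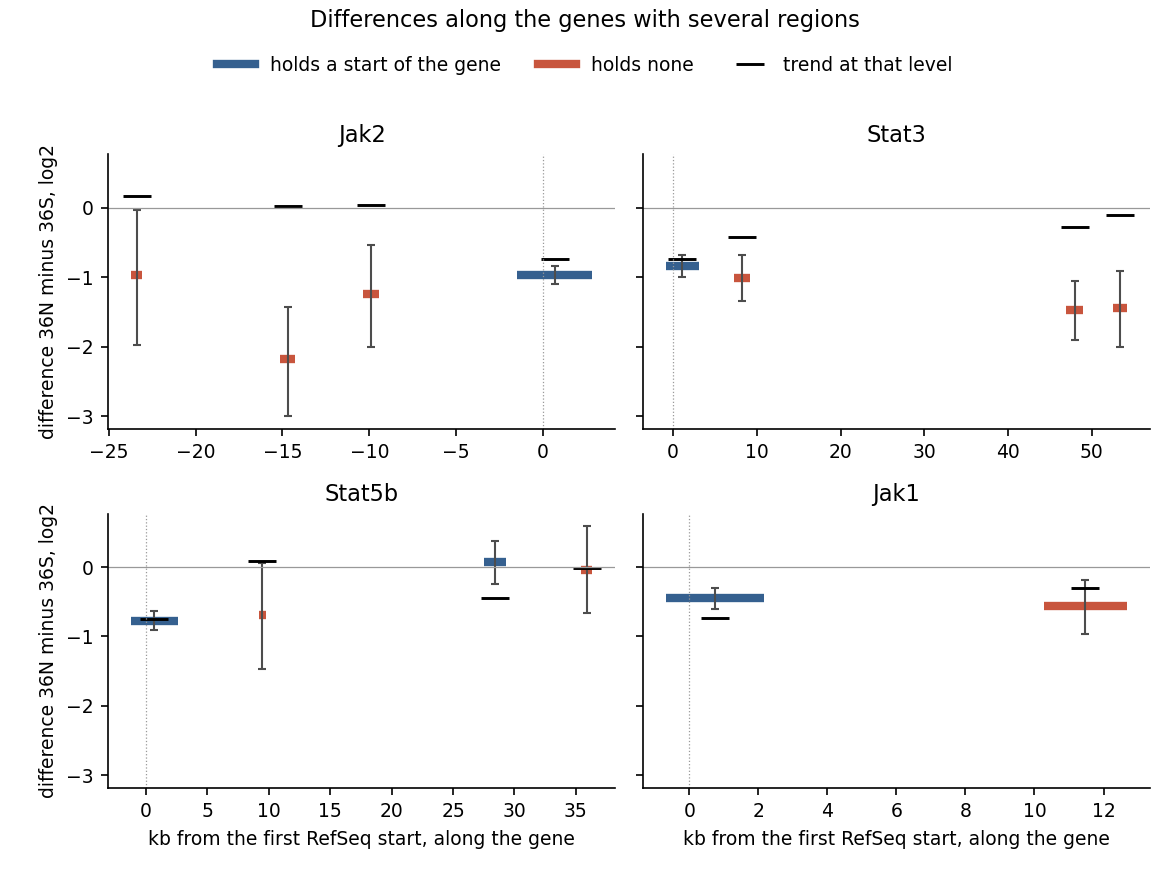
Difference (36N minus 36S, log2) of each region against its distance in kb from the first RefSeq start, along the direction of transcription, for the 4 genes with several regions. Bar width is region length, colour tells whether it holds a start of the gene, vertical lines are 95% counting intervals and black dashes the trend at that level. The Jak2 regions before the start and the Stat3 regions near the 3′ end lie far below their dashes, and the second Stat5b start, at 0.07, lies above its dash.

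The share of a gene's own reads in each region does not depend on a single scaling factor between the libraries, but subtracting the trend with level changes the differences between regions of a gene. The second Stat5b start held 12.1% of the reads over all 4 Stat5b regions in 36S (exact binomial interval 10.5 to 13.96) and 19.5% in 36N (16.9 to 22.2). Relative to the first start it was higher by 0.84 (0.50 to 1.18), or by 0.54 with both adjusted for level. The 35.9 kb region, with 3.23% and 4.81% of reads, was higher by 0.74 (0.09 to 1.38) as deposited, but by 0.0053 after this adjustment. In Jak2 the middle upstream region held 5.09% of reads in 36S (4.07 to 6.27) and 2.28% in 36N (1.36 to 3.58), −1.21 relative to the promoter (−2.05 to −0.45) and −1.98 adjusted for level. In Stat3 the 48.0 kb region held 12.8% and 9.07%, −0.64 relative to the promoter (−1.10 to −0.18), and the 53.4 kb region 7.65% and 5.52%, −0.61 (−1.20 to −0.04). Adjusted for level these were −1.10 and −1.24. For the other 2 Jak2 regions, the 8.2 kb Stat3 region, the 9.5 kb Stat5b region and the second Jak1 region the interval included 0. Of these 10 weaker regions 7 were lower than their gene's strongest region, against 39.5% of 6971 weaker regions of all genes with several regions, and 3 were lower by 0.5 or more, against 19.3%. The median over all such regions was 0.21. Adjusted for level it turned to −0.23, with 61.1% of them lower than their gene's strongest region, and 8 of the 10 were lower.

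**Figure D4:**
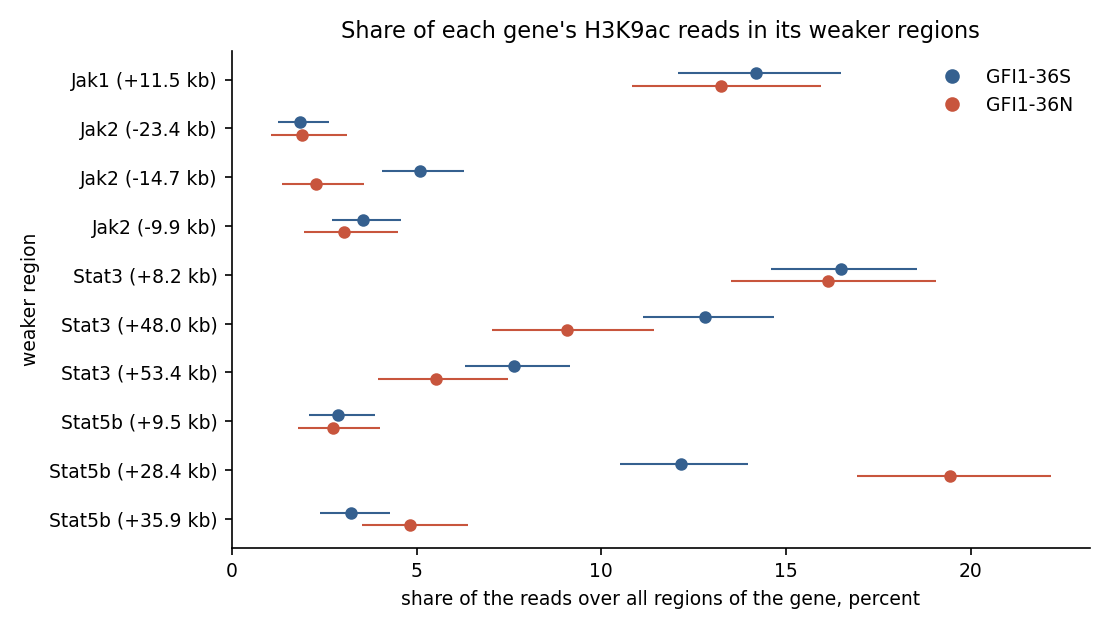
Share of the reads over all regions of a gene (percent) that fell in each weaker region of Jak1, Jak2, Stat3 and Stat5b, in both libraries, with exact binomial 95% intervals. The second Stat5b start (+28.4 kb) went from 12.1% to 19.5% and the middle upstream region of Jak2 (14.7 kb before the start) went from 5.09% to 2.28%.

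Stat2 and Jak3 could be read only through regions that the table gives to other genes. A region given to Apof (chr10:128269501-128271300) lies over the Stat2 start with the ISRE match and overlaps Apof as well. It had 290 and 185 reads, a difference of −0.62 (−0.90 to −0.35), or −0.08 after adjustment for level. A region given to Gm9933 (chr8:71675401-71677950) lies over the start of Jak3, the kinase of the gamma chain in lymphocytes. It had 244 and 204 reads (−0.23, −0.51 to 0.04), with an interval that includes 0, and lay 0.29 above the trend. Tyk2, the remaining Janus kinase, is no member. The region over its start, given to 1700084C06Rik, had 108 and 115 reads (0.12, −0.27 to 0.51). With Jak3 and Stat2 included the gene median was −0.77.

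The other genes of the pathway were read from 5 lists of receptors, inhibitors and targets, 104 genes of which 78 had a region. Together 17 were lower and 2 higher by 1 log2 unit, against 12.6% and 7.37% of all genes, with a median difference of −0.48 (level-adjusted −0.04). After adjustment for level 8 were lower and 4 higher (4.27% and 8.66% of all genes), and relative to the median region 10 and 6 (3.54% and 12.9%). Among cytokine receptors 26 of 33 were measured (median −0.29), 2 were lower and 1 higher by 1 log2 unit. The higher one was Prlr, the prolactin receptor gene, with only 7 and 18 reads (1.39, 0.06 to 2.89), named after its value was seen. Epor and Ifnar2, a chain of the type I interferon receptor with 1150 and 566 reads (−1.0, −1.14 to −0.85; just short of the rule of size), were the lowest of those at or above the median level. Il10ra, the interleukin-10 receptor gene, was the highest at or above that level, with 221 and 361 reads (0.73, 0.49 to 0.98). It was followed there by a region of Il6st, the gp130 chain through which interleukin-6 reaches STAT3, with 252 and 316 reads (0.35, 0.11 to 0.60). Among the inhibitors 17 of 20 were measured, with 3 lower and none higher (median −0.72). Socs2, which restrains JAK2-STAT5 signalling and is induced by it, had 410 and 140 reads (−1.52, −1.81 to −1.24), and Socs1 had 712 and 320 (−1.13, −1.32 to −0.93). Socs5, with 271 and 210 reads, was at −0.34 (−0.61 to −0.08) and Socs6, with 540 and 381, at −0.48 (−0.67 to −0.28).

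Targets of the STATs went different ways by list. Of the STAT3 and STAT5 targets 13 of 16 were measured, with a median of −0.67. As deposited 6 were lower and none higher by 1 log2 unit (12.6% and 7.37% of all genes). Adjusted for level the median was −0.35, with 2 lower and 1 higher (4.27% and 8.66% of all genes). The 2 were the regions given to Pim1 and Myc, both far from those genes. Of the 13 regions 5 lie outside the gene. By RefSeq overlap 8 of the genes were measured, 4 below and 4 above the trend. The lowest was a weak region given to Pim1, 41762 bases away, with 138 and 34 reads (−1.99, −2.58 to −1.44), named after its value was seen. At or above the median level they ran from the region given to Myc, which lies 47077 bases away over Pvt1 (630 and 187 reads, −1.73, −1.97 to −1.49), and Socs2 to Bcl3, at 0.08 (−0.20 to 0.35), and the survival gene Bcl2, with 230 and 420 reads (0.90, 0.66 to 1.13). Of the interferon-response targets, which the STAT2 complex drives, 20 of 27 were measured, with 7 lower and none higher, against the same shares of all genes (median −0.87). Oas3, an oligoadenylate synthetase gene, had 801 and 184 reads (−2.10, −2.33 to −1.86), and Rsad2, an antiviral gene, had 550 and 126 (−2.10, −2.39 to −1.82). Irf1, at −0.19 (−0.39 to 0.01), and Cd274, the PD-L1 gene, at −0.18 (−0.42 to 0.06), were the highest at or above the median level. STAT4 and STAT6 targets, with 1 higher and none lower, had the highest median of the 5 lists, 0.06. The lists share some genes, and no difference between them was tested.

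**Figure D5:**
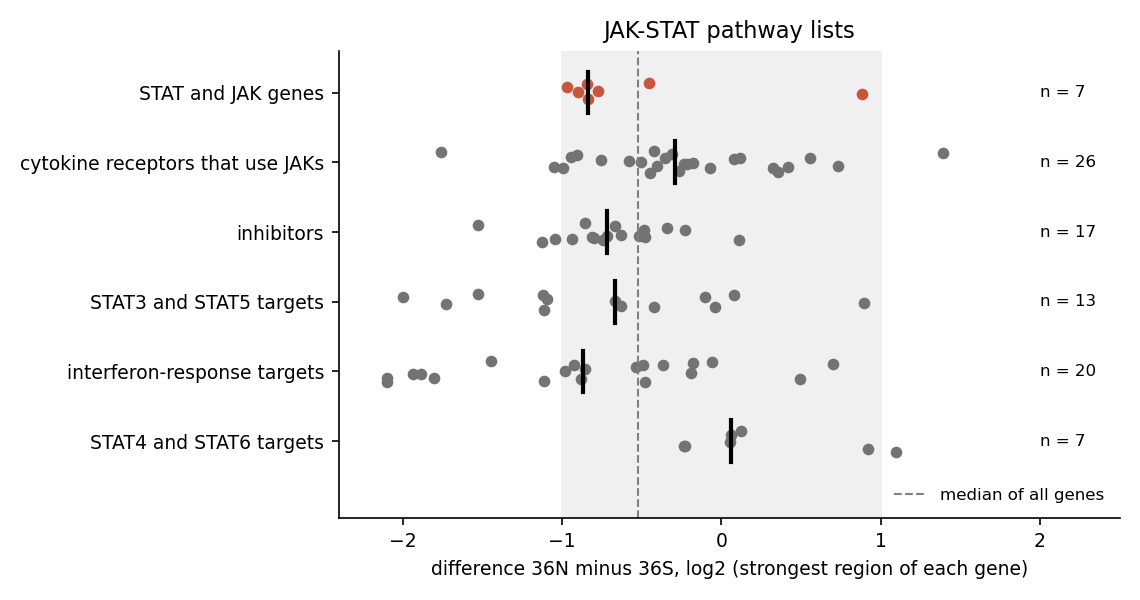
Difference (36N minus 36S, log2) at the strongest region of each measured gene for the 7 STAT and JAK genes and 5 pathway lists; black bars are list medians, the dashed line is the median of all genes (−0.53) and the grey band spans 1 log2 unit either way. Of the STAT and JAK genes 6 lie left of 0 inside the band and Stat4 lies at 0.88.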

How the data were processed

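H3K9ac chromatin immunoprecipitation was done on spleen cells after red cell lysis and fixation in 0.4% formaldehyde, per the labels' protocols. Build mm10 and the tools STAR 2.5.0c, CASAVA 1.8.2 and SAMtools are listed, without roles, in the submitters' processing notes. The calling, counting and annotation of regions are not described in the sources used here, and no input control was used here. The authors deposited 1 log2 value per library and region. Taken back from log2, 100% of 36S values were whole reads within 0.01 (13 regions at a floor below 1 read were read as 0) and 100% of 36N values were whole multiples of 1.02, a constant kept in all differences. The genes and lists were chosen with earlier results of these data known. Each gene took its region with the highest mean log2 value. The trend was a lowess (fraction 0.3, autosomes; statsmodels 0.14.6, scipy 1.17.1, Python 3.11.15). The procedure was tested on simulated data. Starts and sequences are from RefSeq, GRCm38.p6, matched by symbol for all 9 genes. PCR duplicates are not identified, and the intervals treat all reads as independent. They cover counting error only and are too narrow where duplicates were counted. Named genes were all 9 with every region, and of each list the 2 highest and 2 lowest of those whose level reached the median gene; some genes that this rule takes are not reported here. Alternatives were centring, trend subtraction, quantile normalization, other region choices, RefSeq overlap (1 bp), a minimum of 20 reads, sizes of 0.5 and 1.5, and autosomes only.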

Additional observations from a re-analysis of the deposited data

How the results depend on the processing

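No paired analysis was possible because each genotype had 1 library and no test was made. The scaling between the libraries had the largest effect among the 11 alternatives. The members' median of −0.84 became −0.44 relative to the median region, −0.10 with the trend subtracted and −0.11 after quantile normalization. Under the last 2, Jak1 turned from lower to higher (0.29 and 0.28) and 2 in place of 6 genes had an interval below 0, while Stat4 stayed positive under all 11 (0.88 to 1.32). That count was 5 under centring, where Jak1 came to −0.06 (−0.21 to 0.09), and 5 with the mean over all regions, where Stat5b went from −0.77 to −0.36 (−0.82 to 0.10). Stat4 passed the size rule, making 1 gene and 1 region higher, under centring, trend subtraction, quantile normalization and a size of 0.5. No gene was lower by the size rule, except 2 with the mean over all regions, 1 with summed reads and 5 at a size of 0.5. The 5 lower regions became 3 under centring, 3 among regions at distance 0, 13 at a size of 0.5 and 1 at 1.5. Of the pathway genes, 17 lower and 2 higher became 10 and 6 under centring, 8 and 4 with the trend subtracted, 10 and 4 after quantile normalization, 36 and 7 at 0.5, and 9 and 0 at 1.5. With at least 20 reads 1 was higher. At 15 to 24 reads in 36N, the upstream Jak2 values are limited by depth.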

Other observations

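The genes nearest to each member in the pair of log2 reads per kb of region, out of 6277 genes whose level reached the median gene, are given as a description over 2 libraries. Stat4 itself lies below that level, so genes of its own level were not compared, and its nearest were AB041803 at a distance of 0.08, Ctsc at 0.12 and Hexa at 0.14 log2 units. The other members had their 3 nearest genes between 0.0026 and 0.0233 away. For Jak2 these were Cdc42ep3, Mau2 and Tmf1, for Jak1 Mcm9, Tbc1d9b and H2-K1, and for Stat6 Mtor, BC003266 and Psma3. For Stat3 they were D2Ertd750e, Kpna3 and Fen1, for Stat5a Ensa, Nat9 and Klc4, and for Stat5b Letm2, Nploc4 and Gatad1.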
